A study of Mus musculus with 4 samples.

Results

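Potassium channel genes were followed through the hypothalamic cell types of mice carrying Lepr-cre and the Rosa-LSL-tdTomato reporter. They were taken as every protein-coding row of the count tables whose symbol starts with Kcn, which gave 91 of 19680 protein-coding genes. Of these, 10 belong to the Kv1 family with its Kcnab partners, 12 to Kv2 and the silent subunits, 4 to Kv3, and 7 to Kv4 with its Kcnip partners. A further 9 belong to Kv7 with the Kcne subunits, 8 to the EAG family, 12 to the calcium- or sodium-activated channels, 15 to the inward rectifiers, 13 to the tandem pore channels, and Kcnrg makes up the rest. Kcna7, Kcne3 and Kcnk15 were not analysed here. Antisense rows such as Kcnq1ot1 and Kcnmb4os1 were not counted as members, and since the strand used in counting is not given, reads of Kcnq1, Kcnmb4, Kcnd3 and Kcnab3 cannot be told apart from those of their antisense partners. Kcnip1 and Kcnmb1 overlap on opposite strands of chromosome 11, so the same limit applies to this pair.

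Reporter-positive cells of C57BL/6 animals were sorted into 384-well plates and sequenced by CEL-seq2, a method that primes on poly(A) tails and counts molecules by a short random tag. There were 3 plates from fed animals and 1 plate from animals fasted for 24 h, and all 4 carried the same alleles. The Cre is expressed from the leptin receptor locus, so the reporter marks cells in which that locus was active at some time. Neither the number of animals behind each plate nor their ages or sexes are stated in the labels. The p-values below measure only the spread between plates, which may be technical. The fits share that spread over genes, so a very small p-value does not rest on the few plates of 1 gene alone. The 4 plates use 1 set of 384 well barcodes by construction, so shared barcodes say nothing about shared cells.

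Potassium channels let potassium ions leave or enter cells down their gradient. In neurons, voltage-gated families shape the action potential and its repolarization, tandem pore channels carry the resting leak, and G protein-gated inward rectifiers respond to transmitters and peptides. In astrocytes, inward rectifiers take up potassium released by active neurons. In pericytes and muscle of the vessel wall, a channel closed by ATP links metabolism to membrane voltage. AgRP neurons of the arcuate nucleus drive feeding and become more active in hunger, and potassium channels are among the targets through which leptin and other signals change their firing.

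After wells with few transcripts were removed, 1279 of 1536 wells remained, 356, 322 and 331 fed and 270 fasted, with medians of 7753 to 13518 transcripts per well. Cells were grouped by clustering without the potassium channel genes among the features, and classes were named from marker genes. The comparisons used AgRP-like neurons (81, 59 and 28 cells on the fed plates, 26 on the fasted), other neurons (43, 53, 76 and 23), tanycyte-like cells (40, 66, 64 and 41), astrocyte-like cells (3, 28, 37 and 44), endothelial-like cells (94, 22, 25 and 19), pericyte-like cells (4, 4, 10 and 9) and cells like vascular and leptomeningeal cells, called VLMC-like (27, 31, 31 and 13). Lepr itself ranged from 23.3 to 203 CPM in the neuron classes and from 136 to 238 CPM in VLMC-like cells, but reached at most 10.2 CPM in tanycyte-like cells. CPM is the usual depth-scaled count, taken for plain totals over all transcripts of a class on a plate. Levels given with a test are scaled anew within each fit, so they differ from plain totals and between fits. Kcnk2 in VLMC-like cells of the first fed plate, for example, was 402 CPM by plain totals and 484 in the fasting fit.

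Feeding state, plate and sex composition cannot be told apart. The share of cells with Xist but without Y-linked transcripts was 6.74%, 51.6% and 42.0% for fed and 84.4% for fasted. AgRP-like neurons of the fasted plate were also deeper, with a median of 64340 transcripts against 26110, 30430 and 33199. AgRP-like neurons fell into clusters that followed the plates. One held 82 cells, 78 of them from the first fed plate, another 87 cells, with 58 from the second and 25 from the third fed plate, and the last 25 cells, with 24 from the fasted plate. Neuronal transcripts were also counted in non-neuronal classes, and where they came from was not tested. In the 17 combinations of a non-neuronal class and a plate, the AgRP neuron transcript Npy stood at 11.1% to 20.1% of its level in AgRP-like neurons of the same plate, and the neuronal transcript Snap25 at 4.21% to 15.5% of its neuronal level.

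Of the 91 genes, 61 reached a mean of 10 CPM in at least 1 of the 7 classes, and the rest stayed below that level. Summed over all members and among these 7 classes, potassium channel transcripts were most abundant in neurons and astrocyte-like cells and least abundant in endothelial-like cells. The sum was 5906, 6282 and 7382 CPM fed and 6500 fasted in AgRP-like neurons. It was 5431, 7037, 6082 and 8580 CPM in other neurons, in the same order of plates. In astrocyte-like cells, where the first fed plate held too few cells, it was 6010, 5876 and 6715 CPM. The sum was 1367 to 2168 CPM in tanycyte-like cells, 1692 to 2374 in VLMC-like cells, 2129 and 2685 in pericyte-like cells on 2 plates, and 530 to 881 in endothelial-like cells. The groups of plates of the 3 richest classes did not overlap with those of any of the other 4.

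**Figure D1:**
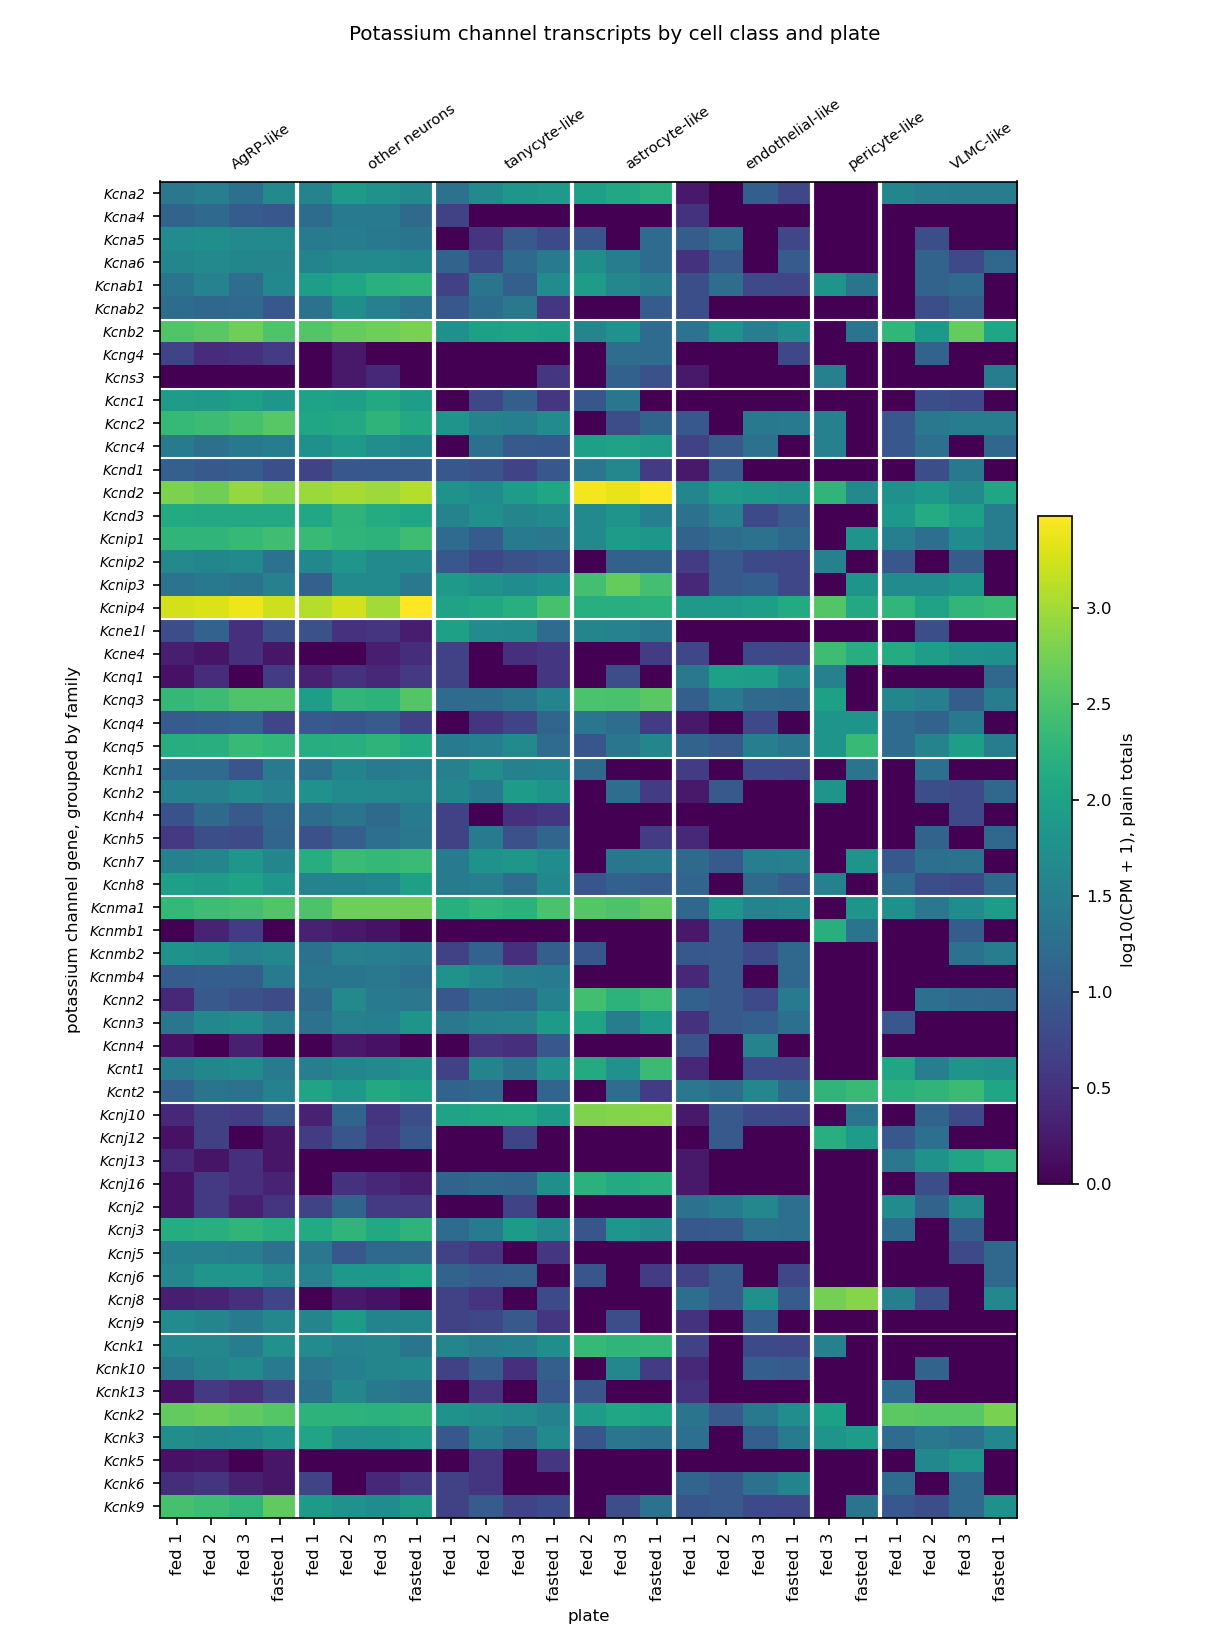
Level of 58 potassium channel genes that reached a mean of 10 CPM in at least 1 of 7 cell classes. Rows are genes grouped by family, columns are plates within each class with at least 5 cells, and colour is log10(CPM + 1). Bright rows differ between neurons, astrocyte-like cells and vessel wall classes, and plates of a class resemble each other.

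Other neurons held the highest mean for 18 of the 61 genes, astrocyte-like cells for 13, AgRP-like neurons for 11, pericyte-like cells for 7, tanycyte-like cells for 5, VLMC-like cells for 4 and endothelial-like cells for 3. For 25 of the 61, every plate of the highest class lay above every plate of the second class, most often in astrocyte-like cells (8 genes), other neurons (6) and pericyte-like cells (5, on only 2 plates). The highest class was picked from the same values, and the share over all genes was not computed. The count therefore does not set potassium channel genes apart from other genes. Among the 11 genes highest in AgRP-like neurons were Kcnk9 and Kcnc2, and 4 stood apart in this way. Kcnj11, the pore of the ATP-closed channel of neurons, was rarely counted: its mean was 4.5 CPM in AgRP-like neurons and 6.5 CPM in the others.

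Neurons as a whole were compared with all other cells on the same plates, with plate as a block. Of 58 members tested, 30 were higher and 10 lower in neurons (edgeR quasi-likelihood test, Benjamini-Hochberg adjusted p under 0.05), against 27.7% higher, 29.4% lower and 57.1% called in either direction among all 14328 genes tested. The median difference was 1.00 on the log2 scale over the members and 0.002 over all genes. By family, 4 of 7 Kv4 members tested were higher and 1 lower, 4 and 0 of 6 EAG members, 3 and 0 of 4 in Kv3, 4 and 1 of 7 in Kv1, and 3 and 0 of 3 in Kv2 and silent subunits. The counts were 3 and 3 of 7 in Kv7 and Kcne, 4 and 1 of 8 tandem pore channels, 4 and 3 of 8 inward rectifiers, and 1 and 1 of 8 calcium- or sodium-activated channels.

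The most abundant neuronal member was Kcnip4, a calcium-binding partner of the A-type channels. After TMM scaling, which corrects library totals for composition, its level in neurons was 1699, 1913 and 1464 CPM fed and 2266 fasted, against 102, 195, 170 and 179 CPM outside neurons. The groups were well apart, with a log2 difference of 3.53 ± 0.23 (SE, adjusted p = 1.5e-05, edgeR). Larger ratios were found for less abundant genes: Kcnj5, a G protein-gated subunit (log2 3.75), Kcna4 (3.69) and Kcnc1, a fast-spiking channel (3.59). Kcnq3 and Kcnq5, subunits of the M current that restrains repeated firing, differed by 1.51 and 2.44. The other G protein-gated genes Kcnj3, Kcnj6 and Kcnj9 differed by 2.73, 2.60 and 2.94. Also higher were Kcnip2, Kcnc2, Kcnh4, Kcnk9, Kcnip1, Kcnb2, Kcnk2, Kcnh7, Kcnd3, Kcnab2, Kcnma1 and Kcnab1, from 0.91 to 2.93. Genes that did not pass included Kcnd2 (1.32, adjusted p = 0.056), Kcnn3, Kcnt1, Kcnt2, Kcnk3, Kcna2, Kcnk1 and Kcnmb4. The 10 lower genes were Kcnj10, Kcne4, Kcnj8, Kcnq1, Kcnk6, Kcna1, Kcnj2, Kcnip3, Kcne1l and Kcnn2, with Kcnj10 the furthest at -5.07.

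In the compared non-neuronal classes (17 combinations of class and plate), Kcnip4 lay between 3.63% and 14.2% of its level in the richer neuron class of the same plate. This range was like the 4.21% to 15.5% of Snap25 in the same combinations. Ependymal-like cells were not among these classes and held more Kcnip4 by plain totals, at levels given under Other observations. With every cell thinned to 1000 transcripts, 71.1% of 194 AgRP-like neurons (95% exact binomial interval 64.2% to 77.4%) and 48.2% of 195 other neurons (41.0% to 55.5%) held a Kcnip4 transcript, against 10% of 160 endothelial-like cells (5.82% to 15.7%), a cell type that should lack it. Unthinned, the shares were 95.4%, 95.9% and 55.6%, at median depths of 30256, 26434 and 10470 transcripts. These intervals cover counting error only. Kcnip4 was above the Snap25 share on some plates, such as 14.2% against 7.37% in pericyte-like cells of the third fed plate, and the part of RNA from lysed neurons in these levels was not tested.

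AgRP-like neurons were then set against the other reporter neurons of the same plates. Here 6 of 48 members tested were higher and 14 lower, or 41.7%, against 15.2% of all 11756 genes (6.77% higher and 8.39% lower). The median over members was -0.27 and over all genes 0.003. The plot of called genes gives every plate.

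The gene that stood furthest above was Kcnk9 (ENSMUSG00000036760, GRCm38 chr15:72501089-72546340, minus strand), a tandem pore channel that sets resting leak and is closed by acid and by some transmitters. Its level in AgRP-like neurons was 302, 258 and 202 CPM fed and 454 fasted. In other neurons it was 79.0, 56.2, 48.1 and 80.1 CPM. The lowest AgRP-like plate was above the highest plate of other neurons, and the log2 difference was 2.18 ± 0.12 (SE, 4 of 4 plates, adjusted p = 1.9e-09, edgeR). Within other neurons, Kcnk9 was low in each of the 3 clusters, at 67.0, 58.9 and 45.9 CPM. It was 234, 291 and 432 CPM in the 3 AgRP-like clusters, which follow the plates and so largely repeat the plate values. At 1000 transcripts per cell, 37 of 194 AgRP-like neurons held a transcript (19.1%, exact interval 13.8% to 25.3%) against 4.10% of other neurons and 0.474% of tanycyte-like cells. Unthinned shares were 95.4%, 45.1% and 3.79%. A high level was not limited to AgRP-like neurons, since pars tuberalis-like cells, a pituitary cell type, held 391 and 357 CPM on the 2 plates with enough of them.

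Kcnk2, a leak channel opened by stretch and lipids, was next, at 447, 508, 437 and 378 CPM against 176, 177, 167 and 186 in other neurons (log2 1.32 ± 0.10). No plate of one class reached the other. Kcnc2, a Kv3 gene of fast repolarization, stood at 221, 245, 299 and 401 CPM against 115, 125, 183 and 126 (log2 1.07 ± 0.14). Kcnj5 differed by 0.98, Kcna5 by 0.92 and Kcnmb2, an inactivating subunit of the large calcium-activated channel, by 0.82, each higher in AgRP-like neurons on 4 of 4 plates.

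Genes lower in AgRP-like neurons came from most families. The largest differences were those of Kcnk13 (2.53 ± 1.68 CPM against 25.7 ± 10.1, SD, n = 4), Kcnn2, a small-conductance calcium-activated channel (5.52 ± 2.96 against 27.1 ± 11.5), Kcnh7 (43.7 ± 14.2 against 208 ± 43.9), Kcnt2, opened by sodium (21.9 ± 9.48 against 101 ± 23.5), and Kcnab1, a Kv1 partner (29.1 ± 12.1 against 134 ± 42.2). Their log2 differences ran from -3.34 to -2.15. Smaller differences, from -1.18 to -0.61, were found for Kcnab2, Kcnc4, Kcnh5, Kcnh4, Kcna4, Kcna2, Kcnma1 and Kcnd2. Kcna2 was lower on 3 of 4 plates and the other 12 named on 4 of 4. All 3 EAG members called and 4 of the 5 Kv1 members called were lower. Genes that did not pass were Kcnk3, Kcnc1, Kcnq3, Kcnq5, Kcnmb4, Kcnb2, Kcnj3, Kcnj6, Kcnj9, Kcnt1, Kcnk1, Kcnip1, Kcnip4, Kcnd3 and Kcnn3.

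**Figure D2:**
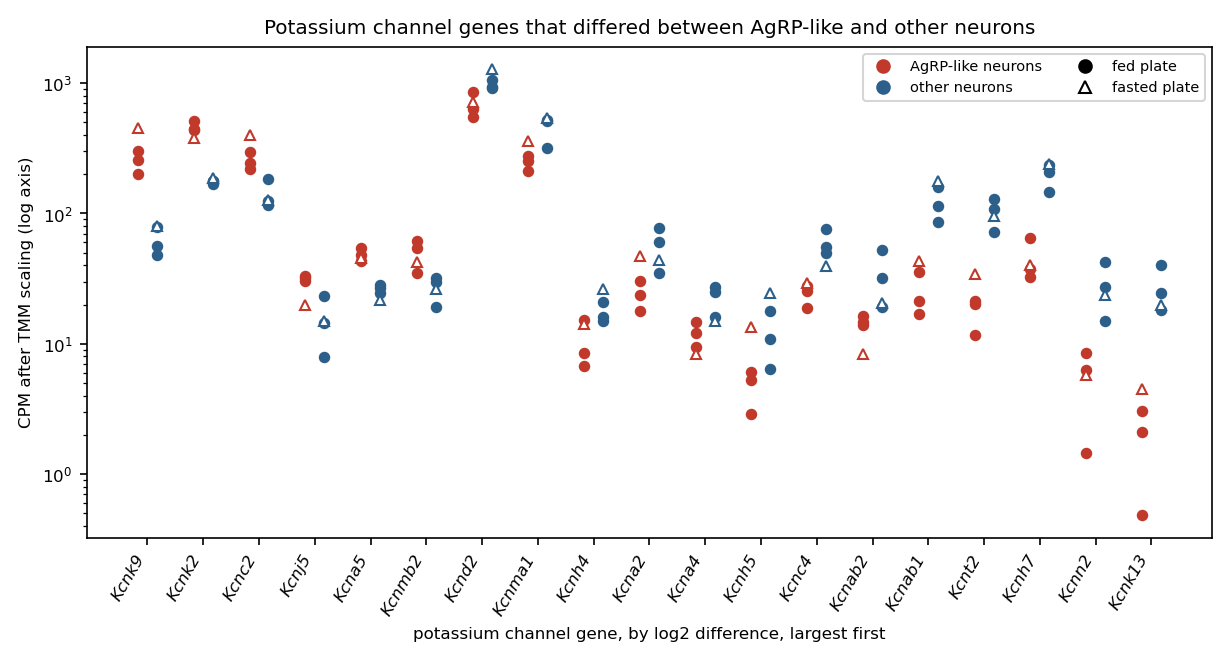
The 19 potassium channel genes shown of those called between AgRP-like neurons (red) and other neurons (blue), ordered by log2 difference. Each point is 1 plate, filled circles fed and open triangles fasted, on a log axis of CPM after TMM scaling. Kcnk9 and Kcnk2 separate fully at the left, and Kcnk13, Kcnn2 and Kcnh7 at the right.

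The other neurons were not uniform. Kcnip4 was 729 CPM in the cluster led by Ghrh, Gal and Th, against 2132 in the cluster led by Tac2 and Prlr and 2022 in the cluster led by Tac1. Kcnab1 went the other way, at 236 CPM in the first and 83.3 and 72.3 in the others. Kcnh7 reached 390 CPM and Kcna2 143 CPM in the Tac1 cluster of 24 cells. Values given without a plate are pooled over cells, and none of these values carries a test. Leaving out the second fed plate reduced the count between AgRP-like and other neurons from 20 to 12.

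Tanycytes line the floor of the third ventricle. Of 55 members tested, 4 were higher and 35 lower in tanycyte-like cells than in the remaining cells, against 18.5% higher, 23.3% lower and 41.8% in all among 13953 genes. The members' median was -1.79 and that of all genes -0.04. The remaining cells include the neurons. The lower genes with the largest ratios among those named were Kcnk9, Kcna4, Kcnc1, Kcnd2, Kcnq3, Kcnip1, Kcnip4, Kcnj5 and Kcnk13, from -4.55 to -2.79. Lower by less were Kcnt2, Kcnj9, Kcnj6, Kcnk2, Kcnq5, Kcna1, Kcnb2, Kcnc2, Kcnk3, Kcnab1, Kcnj3, Kcnd3, Kcnh7 and Kcnma1.

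The 4 higher genes were Kcne1l, Kcnmb4, Kcnh1 and Kcnh2. Kcne1l, an X-linked accessory subunit, stood at 95.6, 47.2 and 44.1 CPM fed and 15.5 fasted, against 3.75, 7.45, 3.07 and 4.53 CPM in the remaining cells. All 4 plates were higher, though the fasted plate was closest to the rest, and the log2 difference was 3.31 ± 0.43 (adjusted p = 5e-06, edgeR). Kcnmb4, the neuronal-type subunit of the large calcium-activated channel, stood at 59.8, 42.5, 29.4 and 25.9 CPM against 8.89, 15.4, 22.2 and 17.03 (log2 1.27 ± 0.36). Kcnh1 and Kcnh2, of the EAG family, differed by 0.91 and 0.73, Kcnh2 on 3 of 4 plates. Within tanycyte-like cells, the cluster led by Crym and Frzb held more Kcnmb4 than the cluster led by Col25a1 and Fndc3c1 (48.3 against 8.64 CPM, pooled), and less Kcnh1 (24.6 against 71.2). Kcnj10 was also higher in the first, at 126 against 49.7 CPM. Kcnj10 (0.99, adjusted p = 0.39), Kcnj16, Kcnj8, Kcnn2, Kcnn3, Kcna2, Kcnab2, Kcnt1 and Kcnk1 did not pass against the remaining cells, which include the astrocyte-like cells with a mean of 679 CPM of Kcnj10 against 102 in tanycyte-like cells, by plain totals.

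Astrocyte-like cells were compared on the 3 plates that held enough of them. Of 55 members tested, 12 were higher and 29 lower, against 14.6% higher, 22% lower and 36.6% in all among 14244 genes. The members' median was -1.44, or -1.29 with genes at 0 counts set to their bound, and that of all genes -0.23.

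The strongest were the inward rectifiers of potassium uptake. Kcnj10, the main glial inward rectifier, stood at 651 and 717 CPM fed and 814 fasted, against 51.9, 36.9 and 64.4 CPM in the remaining cells. Its partner subunit Kcnj16 stood at 170, 140 and 175 CPM against 7.32, 7.75 and 11. Both were higher on 3 of 3 plates with no overlap, by log2 3.86 ± 0.20 and 4.20 ± 0.34 (adjusted p = 4.3e-79 and 5.7e-34, edgeR). By plain totals Kcnj10 was also abundant in oligodendrocyte-like cells (568 ± 83.3 CPM, SD, n = 3 plates), ependymal-like cells (440 ± 14.7, n = 2) and oligodendrocyte precursor-like cells (418 ± 150, n = 3), and stood at 3.84 and 5.29 CPM in AgRP-like and other neurons. At 1000 transcripts per cell, 44.6% of 112 astrocyte-like cells held a Kcnj10 transcript (exact interval 35.2% to 54.3%) against 0.515% of AgRP-like neurons. Unthinned the shares were 83.9% and 9.28%.

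Kcnj10 (chr1:172341210-172374085, plus strand) lies 11891 bases from Kcnj9 (chr1:172320501-172329318, minus strand), a G protein-gated subunit that was higher in neurons, in GRCm38. The neighbouring genes thus start on either side of 1 interval, in opposite directions, and differ in the class where they are abundant, which is why the 250 bases before each start are shown, from RefSeq on GRCm38.p6. Capitals mark the GC box GGGCGG and the TATA box TATAAA on either strand, which occur in 32.7% and 12.4% of 32851 promoter windows of this length.
Kcnj10, chr1:172340960-172341209, plus strand: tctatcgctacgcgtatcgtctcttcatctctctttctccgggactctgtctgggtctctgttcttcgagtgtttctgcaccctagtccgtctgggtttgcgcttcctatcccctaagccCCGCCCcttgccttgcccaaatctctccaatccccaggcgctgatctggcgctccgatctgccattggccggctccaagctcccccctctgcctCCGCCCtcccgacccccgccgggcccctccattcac
Kcnj9, chr1:172329323-172329572, minus strand: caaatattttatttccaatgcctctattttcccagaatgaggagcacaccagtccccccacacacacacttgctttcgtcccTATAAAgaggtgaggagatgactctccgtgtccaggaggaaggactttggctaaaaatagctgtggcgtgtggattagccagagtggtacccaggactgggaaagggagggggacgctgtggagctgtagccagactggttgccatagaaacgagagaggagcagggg
The Kcnj10 window holds GC boxes, 62% GC and 17 CpG, and the Kcnj9 window a TATA box, 52% GC and 5 CpG. The median over all windows was 52.4% GC and 6 CpG. Of the 91 members, 66 had a window in the table, and their median was 58.8% GC and 7 CpG. The E-box CACGTG and the short CRE motif TGACG were also searched, on both strands, and neither is in these 2 windows. A match describes letters only.

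Kcnd2, an A-type channel well known from neurons, was also higher in astrocyte-like cells. It stood at 2695, 2378 and 3403 CPM against 620, 668 and 622 in the remaining cells (log2 2.14 ± 0.17, 3 of 3 plates). The astrocyte-like plates were all above 2000 CPM and by plain totals the mean was 2635 CPM against 666 in AgRP-like neurons and 1036 in the other class. At 1000 transcripts per cell, 72.3% of astrocyte-like cells (exact interval 63.1% to 80.4%) and 52.3% of other neurons held a transcript, and 93.8% and 95.9% unthinned. Oligodendrocyte precursor-like cells held it at 1982, 2849 and 3429 CPM. Kcnip3, a Kv4 partner, was also higher, at 287, 472 and 307 CPM against 73.7, 73.3 and 49.9, and reached 1306, 1584 and 933 CPM in the precursor-like cells. Other genes higher in astrocyte-like cells were Kcnn2 (240 against 21.4 CPM), Kcnk1, a weak leak channel (214 against 34.2), Kcnt1 (153 against 31.5), Kcne1l, Kcnc4, Kcna2, Kcnn3 and Kcnq3. All were higher on 3 of 3 plates except Kcnn3, which was higher on 2.

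Lower in astrocyte-like cells were Kcnb2, Kcnc1, Kcnc2, Kcnd3, Kcnip1, Kcnip4, Kcnh7, Kcnj3, Kcnj6, Kcnj9, Kcnk2, Kcnk3, Kcnk9, Kcnmb2, Kcnq5 and Kcnt2. Kcnmb4, Kcna1, Kcnj5, Kcnh4 and Kcna4 had no transcript there. Against a floor of 3 counts over the class, Kcnmb4 was at least 4.30-fold lower. Kcnab1, Kcnab2 and Kcnma1 did not pass.

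**Figure D3:**
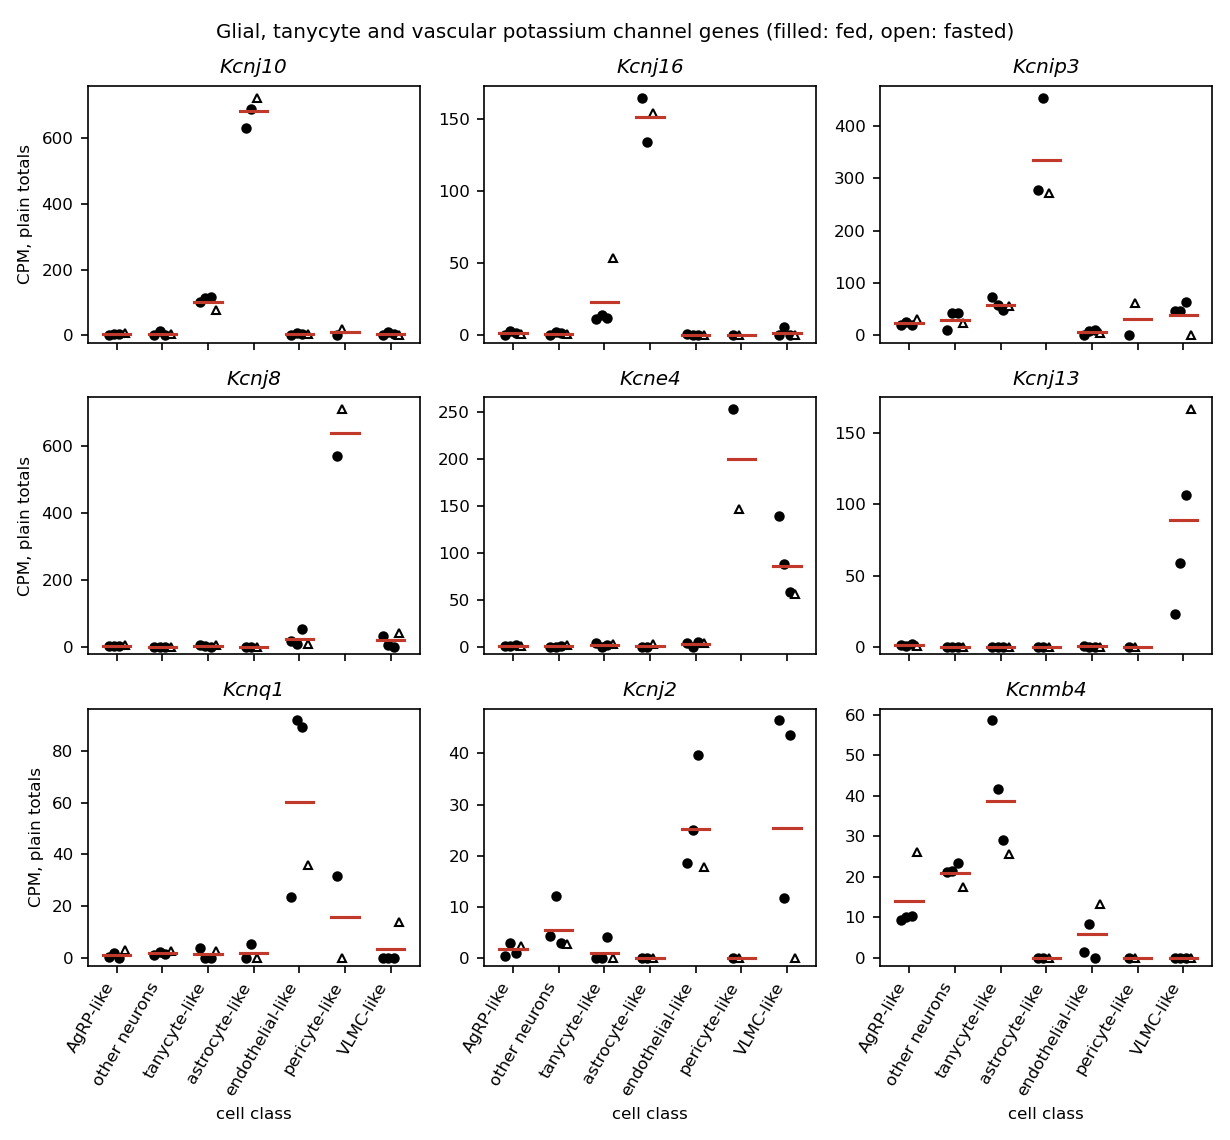
CPM, by plain totals, of 9 potassium channel genes in 7 cell classes. Points are plates with at least 5 cells of the class (filled fed, open fasted) and red lines are means. Kcnj10, Kcnj16 and Kcnip3 peak in astrocyte-like cells, Kcnj8 and Kcne4 in pericyte-like cells, Kcnj13 in VLMC-like cells and Kcnq1 in endothelial-like cells.

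In endothelial-like cells, which line the vessels, 4 of 57 members tested were higher and 48 lower, against 18.9% higher, 27.2% lower and 46.1% in all among 14434 genes. The members' median was -2.71 (-2.67 with bounds) and that of all genes -0.18. No member reached a mean of 100 CPM in this class. Kcnq1, a Kv7 channel of epithelia and heart, stood at 28.4, 88.1 and 90.8 CPM fed and 39.4 fasted, against 5.02, 2.24, 1.68 and 4.12 in the remaining cells (log2 4.04 ± 0.52, adjusted p = 4.4e-08, edgeR). It was higher on all 4 plates. Kcnk6 differed by 2.17, and Kcnj2, a strong inward rectifier of vessels, by 1.74, each on 4 of 4 plates. Kcnj8 was called higher at 1.92, from 20.4, 8.01, 55.5 and 9.85 CPM against 5.97, 3.58, 4.63 and 9.42, so that the fasted plate hardly differed. The direction of Kcnj8 turned under 2 alternatives: it was -2.30 (adjusted p = 0.025) with wells of at least 2000 transcripts and -2.38 (adjusted p = 0.019) with potassium channel genes among the features. Its transcripts sat mostly in the endothelial-like cluster led by Car4 (63.2 CPM, pooled), and the pericyte marker Rgs5 was at 290 to 1234 CPM in endothelial-like cells. The part of pericyte RNA in this value was not tested.

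Lower in endothelial-like cells were Kcnh2, Kcnk9, Kcnj10, Kcna2, Kcnip4, Kcnt1 and Kcnq3 among the largest ratios, from -4.77 to -3.52. Kcnc1, Kcnj5, Kcnh4, Kcne1l and Kcnk12 had no transcript, and Kcnc1 was at least 40.5-fold lower. Also lower were Kcnd2, Kcnc2, Kcnq5, Kcnj3, Kcnj6, Kcnj9, Kcnk1, Kcnk2, Kcnk3, Kcnip1, Kcnma1, Kcnmb4, Kcnb2, Kcnab1, Kcnab2, Kcna4, Kcnd3, Kcnn3, Kcnh7 and Kcnt2. Kcna1 and Kcnn2 did not pass. A cluster of 57 cells came from the first fed plate only. By plain totals, the VLMC marker Dcn was at 3364 CPM in endothelial-like cells of that plate and at most 58.4 on the others. On the fasted plate the haemoglobin transcripts Hba-a1 and Hbb-bs were at 5556 and 9455 CPM in this class, against at most 350 and 388 fed. The part of these in the values of this class was not tested.

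Pericyte-like cells were few, and the comparison counts 4 plates only because the minimum was lowered from 5 to 4 cells after the cells were counted. Of 54 members tested, 4 were higher and 15 lower, against 3.22% higher, 7.72% lower and 10.9% in all among 13078 genes. Kcnj8, the vascular pore that closes with ATP, was the most abundant member of the class, at 283, 493 and 571 CPM fed and 791 fasted, against 10.4, 2.42, 4.17 and 4.22 CPM. No plate overlapped, and the log2 difference was 6.83 ± 0.61 (adjusted p = 1.7e-25, edgeR). Kcnj8 was not among the genes the class was named from. Abcc9, the sulfonylurea receptor that pairs with Kcnj8 in vessels, was also higher, by 6.63 (it too was left out of the features clustered on). At 1000 transcripts per cell, 9 of 27 pericyte-like cells held a Kcnj8 transcript (33.3%, exact interval 16.5% to 54.0%), against 0 of 194 AgRP-like neurons (exact upper limit 1.88%), and 85.2% and 4.64% did so unthinned.

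Kcnj12, another strong inward rectifier, and Kcnmb1, the smooth muscle-type subunit of the large calcium-activated channel, were higher on 3 of 4 plates, by 4.46 and 4.31. Kcne4 was at 0 on the first 2 fed plates and at 254 and 163 CPM on the others, against 4.49 to 10.6 in the remaining cells (log2 4.05). Kcnmb1 shares its locus with Kcnip1. In 37 of the 54 members tested the class held 3 counts or fewer, and 24 were at 0, so that the members' median of -3.86 became -0.35 with bounds in place of fitted values. The median over all genes was -0.94. The 15 lower genes were Kcnj3, Kcnd3, Kcnc1, Kcna2, Kcnj6, Kcnc2, Kcnk9, Kcnma1, Kcnd2, Kcnj10, Kcnb2, Kcnip4, Kcnk2, Kcnq3 and Kcnip1. Kcnj3 was at least 3.44-fold lower. The count of 19 called members was 12 without the second fed plate, 7 without the third and 7 without the fasted plate.

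Kcnj8 (chr6:142564837-142571614) and Abcc9 (chr6:142587862-142702315) are neighbours on the minus strand, 16247 bases apart, and encode the pore and the receptor of 1 channel. The 250 bases before each start are shown because both were more abundant in pericyte-like cells. The RefSeq start of Abcc9 lies inside the gene as GENCODE draws it, so its window overlaps the 5′ end of the coordinates above.
Kcnj8, chr6:142571615-142571864, minus strand: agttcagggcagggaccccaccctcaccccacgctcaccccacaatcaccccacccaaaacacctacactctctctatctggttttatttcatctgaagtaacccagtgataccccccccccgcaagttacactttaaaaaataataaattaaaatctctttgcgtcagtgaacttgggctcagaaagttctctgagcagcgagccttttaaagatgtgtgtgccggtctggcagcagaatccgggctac
Abcc9, chr6:142702275-142702524, minus strand: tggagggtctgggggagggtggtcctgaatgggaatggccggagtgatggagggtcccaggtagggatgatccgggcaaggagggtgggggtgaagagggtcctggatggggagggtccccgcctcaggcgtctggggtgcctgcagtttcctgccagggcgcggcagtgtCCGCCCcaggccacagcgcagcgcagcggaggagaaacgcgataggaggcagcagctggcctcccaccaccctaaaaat
The Abcc9 window holds a GC box, 66.8% GC and 12 CpG. The Kcnj8 window holds neither marked motif but the short CRE motif TGACG, found in 17.8% of windows, with 49.2% GC and 6 CpG. The other pore of this kind, Kcnj11, lies 3758 bases from its own partner Abcc8 on chromosome 7.

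VLMC-like cells, fibroblast-like cells of the meninges and vessel surface, had 6 of 58 members higher and 29 lower, against 12.1% higher, 17.2% lower and 29.2% in all among 13888 genes. The members' median was -2.07 (-1.83 with bounds) and that of all genes -0.18. Kcnj13, an inward rectifier of transporting epithelia, was at 24.5, 66.8 and 113 CPM fed and 174 fasted, against 0.383 to 0.72 CPM in the remaining cells (log2 7.25 ± 0.68, adjusted p = 4.7e-25, edgeR). No plate overlapped, and the VLMC-like plates spread widely. Kcne4 stood at 147, 100, 61.9 and 57.9 CPM against at most 7.17 (log2 4.69). Kcnk2 stood at 425, 421, 402 and 622 CPM against 207, 269, 183 and 179. By plain totals its mean was 438 ± 108 CPM (SD, n = 4), against 429 ± 55.4 in AgRP-like neurons. Kcnt2 differed by 2.09, and Kcnj2 (1.94) and Kcnt1 (1.17) on 3 of 4 plates. Kcnj2 came almost wholly from a cluster of 10 cells led by Nov and Slc47a1, with 16 transcripts (209 CPM, pooled), against 1 in the cluster led by Col15a1.

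Lower in VLMC-like cells were Kcnj6, Kcnc1, Kcnn3, Kcnj3, Kcna5, Kcnj10, Kcnd2, Kcnab1, Kcnk9, Kcnq3, Kcnh7, Kcnip4, Kcnc2, Kcnma1, Kcnip1, Kcnk3 and Kcnq5. Kcnk1, Kcnj9, Kcnmb4 and Kcna4 had no transcript there, and Kcnk1 was at least 7.77-fold lower. Kcnb2, Kcnab2, Kcnj16, Kcnj5, Kcnj8, Kcnn2, Kcna1, Kcna2 and Kcnd3 did not pass. The same cluster of 10 cells held Kcnb2 at 1451 CPM and Kcnk5 at 222 CPM, pooled.

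Classes that were not tested are described here by their levels only. Oligodendrocyte-like cells held 78.5% of their potassium channel transcripts in Kcnq3 (740 CPM), Kcnj10, Kcna6 (368), Kcna1 (254) and Kcnk13 (200). Pars tuberalis-like cells were led by Kcnk3, the close relative of Kcnk9, at 1296 and 930 CPM, then Kcnma1 at 691 and 907. Microglia or macrophage-like cells held Kcnk6 at 9.29, 252, 282 and 151 CPM.

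The fasted plate was compared with the 3 fed plates within each class. This fit has 2 residual degrees of freedom per gene, shares the spread over genes, and assumes that the single fasted plate varies as the fed ones do. In AgRP-like neurons 3 of 53 members tested rose and 1 fell, or 7.55%, against 4.96% of all 13144 genes (3.13% higher and 1.83% lower), with 13 members at an unadjusted p under 0.05. The share of all genes at that unadjusted level was not computed, here or below. Counts at the unadjusted level therefore cannot be set against the percentages of all genes, which are of adjusted calls. The members' median was 0.05 and that of all genes -0.02.

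Kcnk9 rose from 297, 253 and 198 CPM on the fed plates to 442 on the fasted plate (249 ± 50.1 CPM, SD, n = 3 fed), a log2 change of 0.81 ± 0.21 (adjusted p = 0.018, edgeR). The fasted plate was above each fed plate. Kcnmb4 (chr10:116417861-116473878) rose from 9.52, 10.2 and 10.3 CPM to 26.8 (log2 1.42 ± 0.42, adjusted p = 0.036, edgeR). Kcnf1 (chr12:17172100-17176888), a silent subunit that joins Kv2 channels, rose from 4.28, 6.58 and 4.14 to 18.04 CPM, from 4 to 11 transcripts per fed plate to 29 (log2 1.82 ± 0.56, adjusted p = 0.046, edgeR). Kcnip2 (chr19:45791839-45816061), which brings A-type channels to the membrane, fell from 43.3, 38.9 and 45.5 to 19.9 CPM (log2 -1.09 ± 0.33, adjusted p = 0.048, edgeR). In each of the 4 the fasted value lay outside the fed range, which being called on the same plates makes likely. Kcnc2 came next, with 250 ± 38.5 CPM fed against 390 fasted (0.65, adjusted p = 0.064).

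Each of the 4 was lost under some setting. With DESeq2 0 members were called, without the second fed plate 0, with no filter on low counts 1 and with wells of at least 2000 transcripts 2. For Kcnk9 the change ranged from 0.68 to 0.96 with adjusted p from 3.3e-05 to 0.12 over 7 alternatives.

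**Figure D4:**
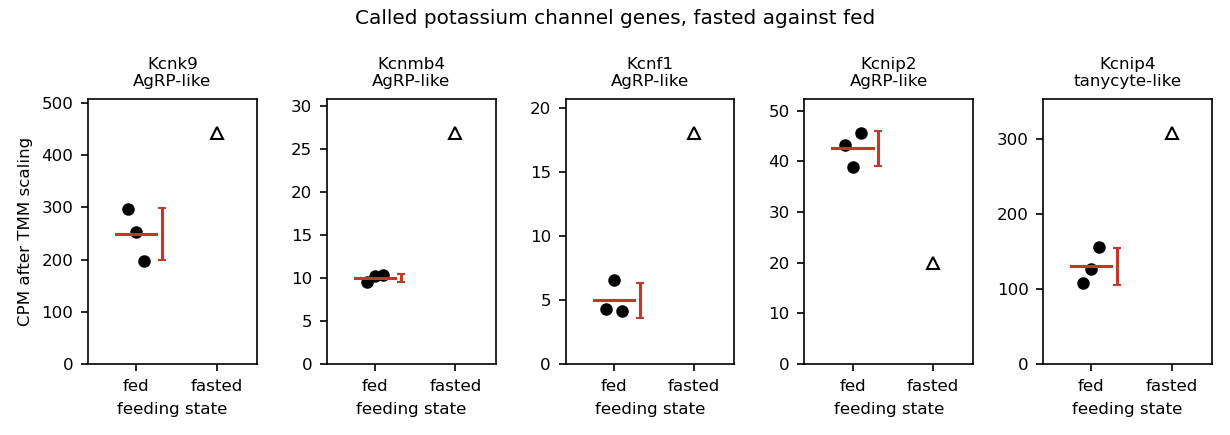
CPM after TMM scaling of the 5 called potassium channel genes, on 3 fed plates (filled circles, red line mean, bar SD) and 1 fasted plate (open triangle), in the class named above each panel. The fasted plate lies above the fed range for Kcnk9, Kcnmb4, Kcnf1 and Kcnip4 and below it for Kcnip2.

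Within AgRP-like neurons, transcripts of other cell types also moved with the fasted plate. Of 17 marker lists, 12 lay outside the fed range, in both directions. Below it lay the VLMC list (33.4 CPM against 93.3 to 118 fed) and the ependymal list (12.8 against 21.8 to 53.9). The smooth muscle, pericyte, POMC neuron and neuron lists were also below it. How often a single plate would lie outside by spread alone was not tested. The pars tuberalis list (7 of 7 genes present, 5 to 7 on the fed plates) summed to 1068 CPM against 201 to 396 fed, the oligodendrocyte list (8 of 8) to 366 against 149 to 222, and the microglia or macrophage list (7 of 8, Tmem119 at 0) to 68.7 against 9.37 to 16.6. The astrocyte list (9 of 10, Gfap at 0) summed to 130 against 23.4 to 76.7, and the AgRP neuron list to 15884 against 9254 to 12049. By plain totals, Kcnk9 was 357 CPM in pars tuberalis-like cells of the fasted plate, and 5.12 CPM in its tanycyte-like cells, where the pars tuberalis list summed to 1170 CPM. The part of these transcripts in the Kcnk9 rise was not tested. Plate, sex and depth cannot be told apart from fasting here.

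In other neurons 0 of 56 members passed (edgeR, with 7 at an unadjusted p under 0.05), against 0.127% of 12602 genes (0.103% higher and 0.0238% lower), and DESeq2 also called 0. The lowest p-values belonged to Kcnh8, Kcnn3, Kcnip4, Kcnq3 and Kcnk1, with adjusted p from 0.115 to 0.459 (edgeR). Kcnip4 was at 1256, 1774 and 995 CPM fed and 2982 fasted. Counts of called members were 2 to 3 when any 1 fed plate was left out, each of the 3 plates changing the count. Of the 17 marker lists 11 lay outside the fed range, in both directions. The pars tuberalis list was above it, at 1168 against 378 to 485 CPM, and the VLMC list below it, at 38.9 against 89.9 to 127 CPM.

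In tanycyte-like cells 1 of 31 members rose and 0 fell, against 2.44% of 9932 genes (1.44% higher and 0.997% lower), with 10 members at an unadjusted p under 0.05. That gene was Kcnip4, which went from 108, 127 and 156 CPM to 307 (log2 1.21 ± 0.29, adjusted p = 0.0043, edgeR). As a share of the level in the richer neuron class of the same plate, Kcnip4 was 5.58%, 6.14% and 6.10% fed and 10.1% fasted. Against AgRP-like neurons, Npy was 20.1%, 14.4%, 11.1% and 14.7%, and Agrp 1.37%, 2.83%, 2.74% and 2.56%. Snap25 stood at 6.15%, 7.65% and 9.21% fed and 5.81% fasted, so that Kcnip4 lay below it in each fed plate and above it in the fasted one. The fasted level differed between the tanycyte-like clusters: in the one led by Col25a1, with 10 cells on the fasted plate, Kcnip4 was 70.3, 59.1 and 164 CPM fed and 854 fasted, and in the one led by Crym 133, 135 and 141 fed and 164 fasted. The neuron list in these cells was 2403 to 3042 CPM fed and 2757 fasted, and the AgRP neuron list 862 to 1489 against 1789. The part of neuronal RNA in this rise was not tested. Only Kcnip4 passed, and the next were Kcne1l (-1.89, 64.7 ± 30.4 CPM fed against 16.0, adjusted p = 0.055), Kcnj16 (2.03, adjusted p = 0.056), Kcnn3 and Kcnma1. The count was 0 with DESeq2, 0 among cells with Xist but without Y-linked transcripts, 0 without the second fed plate, 3 with wells of at least 2000 transcripts and 4 at the coarser clustering.

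In astrocyte-like cells 0 of 18 members passed (1 at an unadjusted p under 0.05) against 0.0356% of 5621 genes, in a fit that includes the fed plate with 3 cells. Kcnj10 was at 747 ± 214 CPM fed and 989 fasted. In endothelial-like cells 0 of 7 passed (0 unadjusted) against 0.0305% of 6548 genes, and in VLMC-like cells 0 of 11 (1 unadjusted, Kcnj13) against 1.06% of 5301 genes (0.453% higher and 0.604% lower). DESeq2 also called 0 in each. The members with the lowest p included Kcnt1, Kcna2, Kcnq3 and Kcnab1 in astrocyte-like cells, Kcnip4, Kcnk2, Kcnb2, Kcnj8 and Kcnq1 in endothelial-like cells, and Kcnj13, Kcnd3, Kcnb2, Kcnk2 and Kcnt2 in VLMC-like cells. Pericyte-like cells were too few on the fasted plate for this comparison.

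The difference between the neuron classes was tested directly, as the change in AgRP-like neurons minus that in other neurons. Of 48 members tested 4 were lower and 0 higher, or 8.33%, against 1.32% of 11756 genes (0.757% higher and 0.561% lower), with 14 at an unadjusted p under 0.05. Levels here are scaled within each class. For Kcnh8, an EAG channel, AgRP-like neurons were at 93.4 ± 10.2 CPM fed and 68.4 fasted, and other neurons at 38.1 ± 3.12 and 95.4 (log2 difference -1.76 ± 0.29, adjusted p = 0.0018, edgeR). For Kcnb2, a slow delayed rectifier, the values were 419 ± 91.0 and 336 against 442 ± 81.2 and 605 (-0.76 ± 0.18, adjusted p = 0.033, edgeR). For Kcnn3, a small-conductance channel, they were 37.6 ± 13.3 and 29.9 against 27.3 ± 6.81 and 64.2 (-1.55 ± 0.38, adjusted p = 0.040, edgeR). For Kcnj6, a G protein-gated channel, they were 56.6 ± 13.97 and 42.9 against 59.1 ± 21.3 and 106 (-1.24 ± 0.31, adjusted p = 0.048, edgeR). In all 4 the fasted plate was lower than the fed mean in AgRP-like neurons and higher in other neurons, while neither change passed by itself. Next by p was Kcnc2 (0.80, adjusted p = 0.071). The fasted plate had 23 other neurons, none of them in the Tac1 cluster, which held 24 cells of the fed plates. Within the Ghrh cluster of other neurons, by plain totals, Kcnh8 was at 32.4, 35.1 and 31.0 CPM fed and 26.3 fasted. Kcnb2 was at 351, 489 and 531 CPM fed and 447 fasted there. Kcnj6 was at 26.7, 57.7 and 66.6 CPM fed and 78.9 fasted. Kcnn3 is not given for this cluster. The part of cluster composition in the differences was not tested. The count of called members was 0 with DESeq2, and 8 with no filter on low counts.

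**Figure D5:**
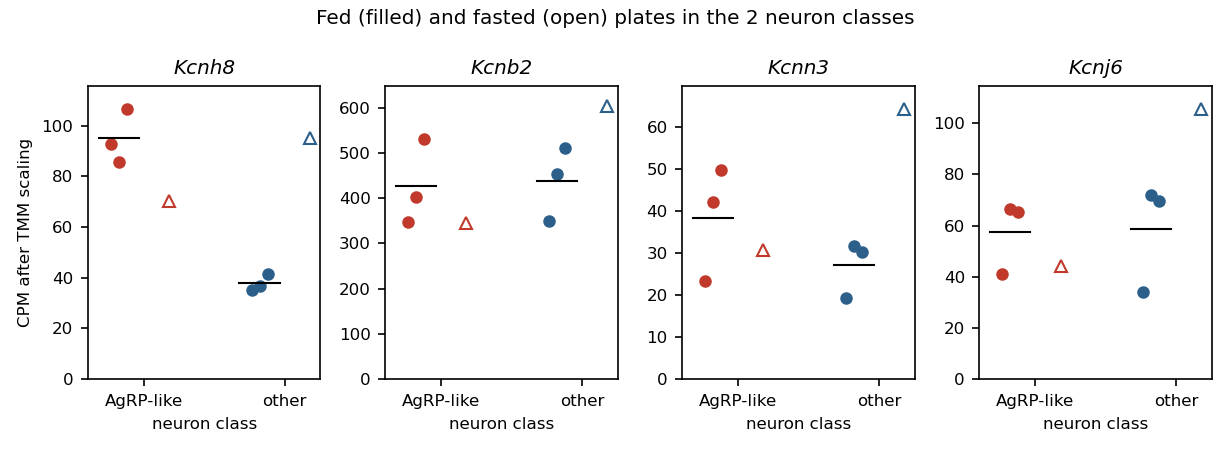
Kcnh8, Kcnb2, Kcnn3 and Kcnj6 in AgRP-like (red) and other neurons (blue), as CPM after TMM scaling of both classes together, so that levels differ slightly from those scaled within a class. Filled circles are fed plates with their mean as a line, and open triangles the fasted plate, which lies below the fed mean in AgRP-like and above the fed range in other neurons for all 4 genes.

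Other genes of potassium handling, 34 of a list of 35 in the tables, were counted alongside. In AgRP-like neurons 2 of 29 tested rose with fasting and 1 fell, against 3.13% higher and 1.83% lower over all genes. Among them, Hcn2, a pacemaker channel, rose (19.1 ± 4.43 CPM fed against 42.3, log2 1.11), and Slc12a5, the neuronal potassium chloride exporter, fell (249 ± 26.2 against 123, log2 -1.02). No gene of the list was called in the other 5 classes or in the difference between neuron classes (edgeR, 0 of 15 to 29 tested in each, with 0 to 7 at an unadjusted p under 0.05). Between classes, 15 of 32 were higher and 9 lower in neurons (27.7% and 29.4% over all genes), and 6 and 6 of 29 in AgRP-like against other neurons (6.77% and 8.39%). In astrocyte-like cells 6 of 32 were higher, among them the sodium pump subunit Atp1b2 (3.85), and 17 lower (14.6% and 22%). The counts were 5 higher and 19 lower of 32 in tanycyte-like cells (18.5% and 23.3%) and 5 and 22 of 32 in endothelial-like cells (18.9% and 27.2%). They were 3 and 10 of 31 in pericyte-like cells (3.22% and 7.72%) and 7 and 16 of 32 in VLMC-like cells (12.1% and 17.2%).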

How the data were processed

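The authors deposited 1 table of expected counts per plate, per the file headers and values: transcripts per gene and well, corrected for molecular tags that coincide, and not whole numbers. Alignment used STAR and trimming Trim Galore on mm10, per the submitters' processing notes; the strand used in counting is not given in the sources used here. Wells with at least 1000 transcripts and at most 30% mitochondrial transcripts were kept, which left 4402410 to 5535040 transcripts per plate. They were clustered with scanpy 1.11.5 (2000 variable genes without the potassium channel genes, 30 components, 10 neighbours, Leiden resolution 1.5) and named from marker genes; no doublet caller was run. Expected counts were summed per class and plate, rounded, and tested with edgeR 4.0.16 (R 4.3.3; low-count filter, TMM, quasi-likelihood, Benjamini-Hochberg over all genes tested, threshold 0.05), after the scripts were tested on simulated data. Class contrasts had plate as a block and needed 5 cells of the class on a plate, or 4 for pericyte-like cells, a minimum lowered after the cells were counted; fasted against fed needed 10 cells on the fasted plate. Alternatives were DESeq2 1.42.0, no filter, wells of 2000 transcripts, resolution 1.0, other cell subsets and leaving out each plate. Shares of cells used 1000 transcripts per cell and exact Clopper-Pearson intervals at 95%. In class contrasts the text names a list of 37 fixed members and members called at 10 CPM or more, and with fasting those called and the next by p up to 5. The members and lists were chosen with earlier results of these data known. Promoter windows came from RefSeq on GRCm38.p6 and gene coordinates from GENCODE vM21 on GRCm38. Bounds for genes at 0 used a floor of 3 counts over the class. A few genes of these lists are not reported here, though counts over the lists include them.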

Additional observations from a re-analysis of the deposited data

Results flagged for a closer look

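A test of the difference between AgRP-like and other neurons in their change with fasting set 4 genes apart. The log2 difference, AgRP-like minus other neurons, was -1.76 for Kcnh8, -0.76 for Kcnb2, -1.55 for Kcnn3 and -1.24 for Kcnj6. For each, the fasted plate was below the fed mean in AgRP-like neurons and above it in other neurons. Within the Ghrh cluster of other neurons, Kcnh8 and Kcnb2 did not lie above the fed range on the fasted plate, while Kcnj6 did. Values of Kcnn3 in that cluster are not given. The share of cells with Xist but without Y-linked transcripts was 8.64%, 67.8% and 21.4% fed and 88.5% fasted in AgRP-like neurons, and 13.95%, 58.5%, 50% and 87.0% in other neurons. The part of these in the differences was not tested.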

How the results depend on the processing

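Of 116 recomputed counts of called members, 95 stayed within 1.5 times the reported count. For fasting, the count of 4 in AgRP-like neurons became 0 with DESeq2, 1 with no filter on low counts, 2 with wells of at least 2000 transcripts and 0 to 5 with a plate left out. The count of 0 in other neurons became 3 with no filter, 1 among cells with Xist but without Y-linked transcripts and 2 to 3 with a plate left out. The count of 1 in tanycyte-like cells became 0 with DESeq2, 4 at resolution 1.0, 3 with wells of at least 2000 transcripts, 0 among cells with Xist only and 0 to 2 with a plate left out. The difference between neuron classes went from 4 to 0 with DESeq2, 8 with no filter (an alternative chosen after seeing the data) and 3 to 6 with a plate left out. With a plate left out, counts ranged from 12 to 25 between AgRP-like and other neurons and from 7 to 15 in pericyte-like cells, and stayed within 1.5 times in the other class contrasts. Of 1500 values for single genes 1335 kept their direction and call, 144 lost the call, 19 gained one and 2 turned direction: Kcnj8 in endothelial-like cells, at -2.30 with wells of at least 2000 transcripts and -2.38 with the members among the clustered features. The cause was not tested. DESeq2 moved the median of all genes by -0.11 in the endothelial-like contrast and by 0.30 in that of pericyte-like cells. AgRP-like neurons with Xist only, and astrocyte-like cells without fed plate 2 or 3, could not be fitted for fasting. No paired analysis was possible because the fed and fasted groups share fewer than 2 replicate numbers.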

Other observations

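Classes outside the comparisons differed in their leading potassium channel genes, here as CPM by plain totals and without a test. In oligodendrocyte precursor-like cells the sum over all members was 7539, 9194 and 8567 CPM on 3 plates. Kcnk3, a tandem pore leak channel, stood at 279, 239 and 295 CPM there. Ependymal-like cells, ciliated cells of the ventricle wall, held Kcnip4 at 682 and 650 CPM and Kcnmb1 at 103 and 168 CPM on 2 plates. Microglia or macrophage-like cells held Kcnk13 at 9.29, 144, 84.7 and 130 CPM, the low value being that of the first fed plate. The 7 smooth muscle-like cells of the third fed plate held Kcnab1 at 630 and Kcnma1, the pore of the large calcium-activated channel, at 606 CPM.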
